A study of Arabidopsis thaliana with 6 samples.

Results

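Wild-type *Arabidopsis thaliana* seedlings of the ecotype Columbia (Col-0) are described here as a baseline, from the 3 of 6 RNA-seq libraries whose labels give the genotype Col-0. These libraries, replicates 1 to 3, were chosen by that label alone and by no measured value, and the *fer-4* libraries are not described. Each held RNA of whole seedlings grown for 7 days on MS-agar plates in long days under moderate light and harvested at zeitgeber time (ZT) 3, which is 3 h after lights on. The plants carried no mutation or transgene, and no treatment besides the light is named. The paper uses this light as its moderately elevated intensity, set against dim light. By RT-qPCR it reports that the stress gene *RD29B* was raised in Col-0 under this light, within 3 h after the dark period. The baseline is therefore that of this light and hour. The light intensity has the number 154 in the labels and in the methods, but the labels write mmol and the methods μmol per square metre and second. Levels are given in FPKM (fragments counted per kilobase of transcript and per 1000000 mapped fragments), so values of different genes can be compared per length.

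A young green seedling draws its energy from photosynthesis in the cotyledons while the root takes up water and minerals. In the chloroplast, photosystem II (PSII) and photosystem I (PSI) with their light-harvesting antennas drive electron transport, and Rubisco fixes CO2 in the Calvin cycle. Most of these proteins are encoded in the nucleus and imported, and the others are encoded in the chloroplast's own genome. Whole-seedling RNA mixes all organs, so fewer cells of a type and less RNA per cell cannot be told apart in any value below.

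The file listed 27372 genes, and 21896, 21943 and 21824 of them were above 0 in replicates 1, 2 and 3. A mean of at least 1 FPKM was reached by 18664 genes, or 68.2% of the list, and 4777 genes, or 17.5%, were at 0 in every library. The FPKM total was 977965, 960716 and 1000328, with a mean of 979669 and an SD of 19861. No source used here gives the number of reads. The smallest steps between low values put the depth of replicate 2 at 1.08 times and that of replicate 3 at 0.952 times that of replicate 1. Across the 19653 genes of at least 0.5 FPKM, Pearson's r of log2(FPKM + 0.1) was 0.988 between replicates 1 and 2 and 0.985 in both pairs with replicate 3. This is a correlation across genes, which are not independent replicates.

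Transcripts of photosynthesis led the ranking. Of the 30 most abundant genes, 28 were in 5 lists of nuclear photosynthesis genes (PSII, PSI, electron carriers and ATP synthase, Rubisco small subunits with Rubisco activase, and the Calvin cycle), and the other two were the chloroplast-encoded *ATPE* and the carbonic anhydrase gene *CA1*. These 5 lists held 75 genes, and together they made up 22.7%, 21.9% and 22.9% of the FPKM total. None of the 75 genes was below 110.5 FPKM, and their median was 2369 FPKM, whereas the median of all genes in the file was 5.70 FPKM. The 10 most abundant genes held 9.03%, 8.80% and 9.13% of the total, and the 100 most abundant held 29.2%, 28.5% and 29.7%. A total of 529, 564 and 516 genes sufficed for 50% of it. Replicate 2 had the flattest distribution by each of these measures.

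*RBCS1A* (AT1G67090, chromosome 1, 25048158 to 25049424 in TAIR10), a gene of the Rubisco small subunit, was the most abundant transcript at 15393, 14518 and 16113 FPKM. *RBCS3B* (AT5G38410), a tandem relative on chromosome 5, followed at 13948, 12939 and 14322 FPKM. The ranges of these neighbours in the order did not overlap. *RBCS2B* (AT5G38420) was at 5506, 5020 and 5548 FPKM and *RBCS1B* (AT5G38430) at 2208, 2047 and 2705 FPKM. The 4 genes together made up 3.75% ± 0.141 of the FPKM total (SD, n = 3). *RBCS1A* supplied 41.7% ± 0.270 of their sum, *RBCS3B* 37.4% ± 0.322, *RBCS2B* 14.6% ± 0.262 and *RBCS1B* 6.29% ± 0.605. The shares of *RBCS1A*, *RBCS3B* and *RBCS2B* were nearly the same in each library, whereas *RBCS1B* took 5.96%, 5.93% and 6.99% of the sum and was highest in replicate 3.

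The tandem *RBCS* genes are close copies, so fragments can be hard to assign to one of them. The coding sequences of *RBCS1B* and *RBCS2B* were 97.3% identical, and *RBCS3B* shared an unbroken run of 230 bases with *RBCS1B*. The first 150 coding bases are shown to let the copies be compared, from RefSeq's TAIR10.1 genome on the minus strand of chromosome 5 (genes at chr5:15383167-15385320, chr5:15380907-15382071 and chr5:15376988-15378642), with capitals where a base differs from *RBCS3B* at the same position.
RBCS1B: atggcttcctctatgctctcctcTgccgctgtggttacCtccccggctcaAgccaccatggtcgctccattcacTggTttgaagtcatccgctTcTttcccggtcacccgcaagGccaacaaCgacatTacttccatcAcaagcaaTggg
RBCS2B: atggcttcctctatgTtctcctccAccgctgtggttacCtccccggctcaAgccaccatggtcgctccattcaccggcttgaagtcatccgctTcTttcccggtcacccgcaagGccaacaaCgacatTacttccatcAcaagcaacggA
RBCS3B: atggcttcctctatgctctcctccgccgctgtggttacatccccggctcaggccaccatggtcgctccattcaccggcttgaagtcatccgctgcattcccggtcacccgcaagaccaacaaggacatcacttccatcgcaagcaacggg
Over this stretch *RBCS1B* differed from *RBCS3B* at 12 bases and *RBCS2B* at 11. The separate levels of these copies are therefore less certain than their sum of 36756 ± 2098 FPKM (SD, n = 3).

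Genes of the main PSII antenna protein came next. *LHCB1.5* (AT2G34420) was at 11904, 11392 and 11943 FPKM and *LHCB1.3* (AT1G29930) at 9916, 9827 and 9658 FPKM. *LHCB1.1* (4878 ± 91.8 FPKM) and *LHCB1.2* (4173 ± 297 FPKM) were lower, and *LHCB1.4* (AT2G34430), the neighbour of *LHCB1.5* on chromosome 2, was at 312 ± 21.5 FPKM (SD, n = 3). Computed within each library, *LHCB1.5* exceeded *LHCB1.4* 37.7 ± 1.84 times. Coding sequences within the family were 86.8% to 96.4% identical, with the highest identity between *LHCB1.2* and *LHCB1.3*. In PSII itself, *PSBR*, encoding a subunit near the oxygen-evolving complex, was at 8290 ± 304 FPKM and *PSBX*, a small core subunit, at 5553 ± 431 FPKM. Among the oxygen-evolving complex genes, *PSBO1* (3786 ± 84.6 FPKM) exceeded its relative *PSBO2* (1333 ± 74.4 FPKM) with no overlap between their libraries. The antenna gene *LHCB4.3* had the lowest level of the 25 PSII genes, at 111 ± 7.65 FPKM. The 25 genes of PSII and its antenna held 9.20% ± 0.161 of the FPKM total (SD, n = 3).

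**Figure D1:**
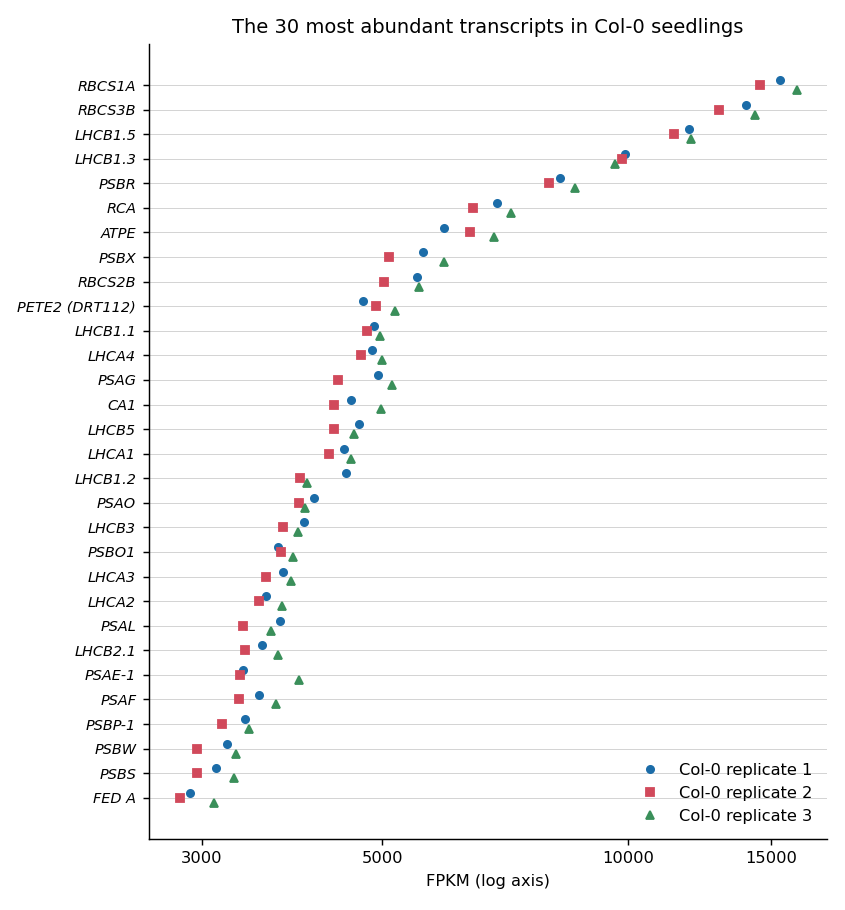
FPKM of the 30 most abundant genes in each Col-0 library (log axis, genes ordered by their mean, 1 point per library and gene). The first 5 genes do not overlap with the next in the order, with *RBCS1A* between 14518 and 16113 FPKM, while from *RCA* downwards the ranges of neighbouring genes overlap.

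The upper ranks were distinct and the lower ones were not. The first 5 genes (*RBCS1A*, *RBCS3B*, *LHCB1.5*, *LHCB1.3* and *PSBR*) each had a range above that of the next gene, whereas the other 24 of 29 neighbouring pairs among the top 30 had overlapping ranges. Of the 30 genes, 29 were among the 30 most abundant of all 3 libraries. Their coefficients of variation (CV, the SD as a percent of the mean) ran from 1.34% for *LHCB1.3* to 9.65% for *PSAE1*, with a median of 4.91%.

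The 18 genes of PSI and its antenna held 5.17% ± 0.138 of the FPKM total (SD, n = 3), and 4 antenna genes lay close together. *LHCA4* was at 4855 ± 145 FPKM, *LHCA1* at 4454 ± 138, *LHCA3* at 3743 ± 130 and *LHCA2* at 3628 ± 125 FPKM (SD, n = 3). The minor antenna genes *LHCA6* (204 ± 12.0 FPKM) and *LHCA5* (141 ± 5.15 FPKM) were far below them. *PSAG*, a PSI subunit, was the most abundant non-antenna gene of PSI at 4937, 4405 and 5138 FPKM. Where PSI subunits had paired genes, the members were unequal, as with *PSAD1* (2376 ± 157 FPKM) and *PSAD2* (1269 ± 81.3 FPKM), and *PSAE1* (3556 ± 343 FPKM) and *PSAE2* (1008 ± 48.3 FPKM).

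Electron carriers showed a similar inequality between copies. *PETE2* (also *DRT112*), the major plastocyanin isoform, was at 4737, 4907 and 5180 FPKM, and *PETE1* was at 261, 235 and 272 FPKM. Plastocyanin carries electrons from cytochrome b6f to PSI, and the ratio of *PETE2* over *PETE1* was 19.3 ± 1.39. The ferredoxin genes *FD2* (2945 ± 149 FPKM) and *FD1* (2898 ± 293 FPKM), by contrast, had overlapping levels. *PETC*, the Rieske protein of cytochrome b6f, was at 1438 ± 37.4 FPKM and *LFNR1*, a ferredoxin-NADP reductase, at 644 ± 39.6 FPKM (SD, n = 3).

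In the Calvin cycle the plastid aldolase gene *FBA2* was highest, at 2743, 2678 and 2994 FPKM. *CP12-1*, encoding a small protein that links phosphoribulokinase and glyceraldehyde-3-phosphate dehydrogenase, was at 2369 ± 267 FPKM, *GAPA1* at 1736 ± 70.3 FPKM and *FBA1* at 1597 ± 102 FPKM. *RCA*, the activase that frees Rubisco of inhibitory sugar phosphates, was at 6914, 6451 and 7190 FPKM. The lowest of the 16 Calvin cycle genes was *PGK2* at 180 ± 5.96 FPKM (SD, n = 3).

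Photorespiration recovers the product of Rubisco's reaction with oxygen across chloroplast, peroxisome and mitochondrion. Its 14 genes held 1.27% ± 0.0256 of the FPKM total (SD, n = 3), and 13 of them were at 233 FPKM or more. The catalase gene *CAT2* was at 1756 ± 59.4 FPKM, *SHM1* (serine hydroxymethyltransferase) at 1470 ± 50.6, *GOX1* (glycolate oxidase) at 1458 ± 75.3 and *GGT1* (glutamate:glyoxylate aminotransferase) at 1328 ± 55.9 FPKM. The lowest was *PGLP1* (AT5G36700), the phosphoglycolate phosphatase that opens the pathway, at 0.783, 0.609 and 0.658 FPKM. A second locus, AT5G36790, carries the same coding sequence over all 1089 bases and was at 4.12, 4.98 and 5.38 FPKM. The copies summed to 5.51 ± 0.569 FPKM (SD, n = 3). Since no source used here says how fragments that fit both copies were counted, the levels of this pair, and its distance from the other genes of the pathway, are uncertain.

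Chlorophyll biosynthesis genes were spread over a wider range. *CRD1*, the cyclase of the chlorophyll ring, was at 1763, 1780 and 1885 FPKM. The Mg-chelatase subunit genes *CHLH* (588 ± 8.06 FPKM), *CHLI1* (357 ± 27.2 FPKM) and *CHLD* (71.7 ± 0.991 FPKM) fell in distinct steps, with no overlap. Of the protochlorophyllide oxidoreductase genes, *PORC* was at 192 ± 11.0 FPKM and *PORB* at 73.3 ± 2.18 FPKM (SD, n = 3), a ratio of 2.62 ± 0.111, and *PORA* was listed at 0 in all libraries. *PORA* is known as the form of etiolated seedlings. Its coding sequence was 82.5% identical to that of *PORB*.

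Among the 100 most abundant genes, 57 were in the 5 photosynthesis lists. Outside the 5 lists, AT2G45180, to which the file gives no description, was at 2307, 2186 and 3370 FPKM. It was highest in replicate 3 and had a CV of 24.9%, against a median of 5.29% over the 100 genes. The metallothionein genes *MT3* (2745, 2114 and 2576 FPKM), *MT2B* (1997, 1902 and 1717 FPKM) and *ATMT-K* (1215, 1363 and 1011 FPKM) encode proteins that bind metals. *MT3* and *MT2B* were highest in replicate 1 and *ATMT-K* in replicate 2. *THI1*, which makes the thiazole part of thiamine in the chloroplast, was at 2459 ± 98.3 FPKM. The tonoplast aquaporin gene *TIP1;2* (AT3G26520) was at 2245 ± 58.5 FPKM, and *BGLU23*, the beta-glucosidase of root ER bodies, was at 1989 ± 123 FPKM (SD, n = 3). The lipid-transfer protein gene *LP1* was at 1710 ± 28.5 FPKM. Cytosolic ribosomal proteins contributed 1 gene to the top 100, AT3G11120 (L41), at 1378, 1134 and 1289 FPKM.

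Nuclear genes were also grouped by words in the file's gene descriptions, which were missing for 13096 of 27372 genes, so family counts are minima. Over all genes in the file, 68.2% reached 1 FPKM. Genes without a description reached it in 59.6% of cases, so the share of described genes lies above 68.2%. Cytosolic and chloroplast ribosomal proteins followed photosynthesis. The 222 cytosolic ribosomal protein genes held 5.99%, 5.44% and 5.52% of the FPKM total, with a median level of 222 FPKM, and 210 of them reached 1 FPKM. The 41 nuclear genes of chloroplast ribosomal proteins held 2.00% ± 0.0795 with a higher median of 464 FPKM, led by *SSR16* (S16) at 1272 ± 87.2 FPKM. Elongation factors were headed by the chloroplast EF-Tu gene *ATRAB8D* at 1225 ± 104 FPKM. The 43 proteasome subunit genes were all detected, between 11.9 and 141 FPKM, and their median CV of 3.72% was under the 6.38% of all genes tested. Histone genes held 0.458% ± 0.0185, and 3 of the 4 most abundant ones encode H3.3, the replication-independent H3 (464.9, 405.1 and 208.5 FPKM on average).

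Families of membrane, wall and detoxification proteins each had a few dominant members. The 34 aquaporin genes held 1.09% ± 0.0166 of the FPKM total, and besides *TIP1;2* the plasma membrane forms *PIP2;1* (AT3G53420, 1275 ± 28.1 FPKM) and *PIP1;2* (AT2G45960, 1257 ± 54.8 FPKM) exceeded 1000 FPKM, as did the tonoplast form *GAMMA-TIP* (1167 ± 32.3 FPKM). Among 52 glutathione S-transferase genes, *ATGSTF9* (1029 ± 28.1 FPKM) and *GSTU19* (849 FPKM on average) led, and 45 members reached 1 FPKM. Class III peroxidases were led by *PRXR1* (peroxidase 42) at 646, 663 and 614 FPKM, and arabinogalactan proteins by *AGP15* at 669, 632 and 773 FPKM. *FER*, the FERONIA receptor kinase studied in the paper, was the second most abundant of 279 receptor-like kinase genes, at 56.5, 62.6 and 64.6 FPKM, where the class median was 3.63 FPKM. Above it stood *TIR* (AT1G72930, 97.1 FPKM on average), a Toll/interleukin-1 receptor-like gene that fell in the class through the words of its description.

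Regulatory families were low. The 417 described WRKY, ERF, NAC, MYB, bHLH and MADS-box genes together held 0.406% ± 0.00856 of the FPKM total, with a median of 2.54 FPKM. Of these, 263, or 63.1%, reached 1 FPKM, below the 68.2% of all genes in the file. Only described genes could enter a family, and the share of described genes is higher than that of all genes. Beside the counts at 0 below stands the 17.5% of all genes that were at 0 in every library. Of the 13096 genes without a description, which could not enter these families, 3272 were at 0. The most abundant of the 417 genes was the NAC gene *NAC083* at 140, 130 and 139 FPKM, followed by the ERF gene *RAP2.3* at 115, 119 and 131 FPKM. MADS-box genes, many of which act in flowers, had a median of 0.124 FPKM, yet the floral repressor gene *SVP* was at 54.3 ± 1.60 FPKM, *MAF2* at 24.6 FPKM, *AGL16* at 21.0 FPKM and *AGL20* (SOC1) at 19.8 FPKM on average. Pentatricopeptide repeat genes, which serve RNA processing in organelles, were seldom at 0 (3 of 443) but low, with a median of 2.02 FPKM. Of the 443, 317, or 71.6%, reached 1 FPKM. Of the F-box genes, 311 of 658 were at 0 and 234 reached 1 FPKM. Of 268 defensin-like genes, 222 were at 0, while *PDF2.3* reached 637, 586 and 650 FPKM.

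**Figure D2:**
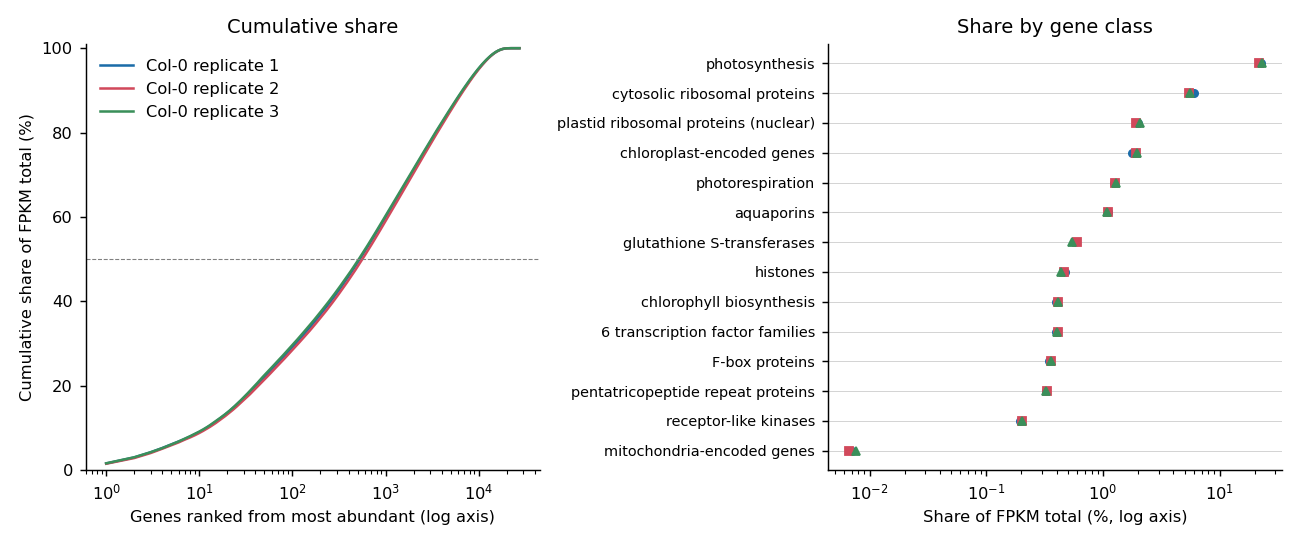
Left, cumulative share of the FPKM total (%) over genes ranked from the most abundant (log axis), 1 line per Col-0 library; the lines cross 50% (dashed) between 516 and 564 genes. Right, share of the FPKM total (%, log axis) by gene class with 1 point per library, from 22.5% on average for the 75 photosynthesis genes to 0.00709% for mitochondria-encoded genes.

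Organelle transcripts were a small part of the total. The 88 chloroplast-encoded genes, all of them protein-coding, held 1.78%, 1.92% and 1.97% of the FPKM total, with replicate 1 the lowest. Of these genes, 15 were at 0 in every library, near the 17.5% of all genes in the file. Most of the 15 were very short, such as *YCF6* with a span of 90 bases, whereas *RPS16* spanned 1105 bases. The 122 mitochondria-encoded genes held 0.00708%, 0.00659% and 0.00759%, and 69 of them were at 0. Transcripts of both organelles mostly lack the poly(A) tails of nuclear mRNA, and no source used here says whether poly(A) selection or rRNA depletion preceded library construction. Organelle levels were therefore not read against nuclear ones as a measure of transcription.

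Levels within the chloroplast genome were very unequal. *ATPE* (ATP synthase epsilon subunit) was at 5948, 6399 and 6859 FPKM and *ATPB* (beta subunit) at 2542, 2673 and 2699 FPKM. The file gives both the same locus (chloroplast genome, 52265 to 54156), and together they held 48.8% ± 0.332 of all chloroplast-encoded FPKM (SD, n = 3). The other 4 ATP synthase genes were between 4.83 and 8.13 FPKM on average. *PSBA*, the D1 protein gene of PSII, was at 19.8, 31.5 and 31.5 FPKM, and *RBCL*, the Rubisco large subunit gene, at 9.09, 15.7 and 14.2 FPKM. Both are known as strongly transcribed chloroplast genes. *RBCS1A* exceeded *RBCL* 1694, 925 and 1132 times. Of the 66 chloroplast-encoded genes of at least 0.5 FPKM, 32 were lowest in replicate 1, where 34.1% of all genes tested were. *PSBA*, *RBCL*, *PSAA*, *PSAB*, *PSAC* and *ATPH* were among them, whereas *PSBD* (284, 283 and 270.2 FPKM) and *PSBE* (15.1, 9.78 and 10.9 FPKM) were highest in that library.

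Ribosomal protein genes made up another 39.99% ± 0.745 of the chloroplast-encoded FPKM (SD, n = 3). The highest of them was *RPL32*, with a span of 159 bases, at 1686, 2276 and 1097 FPKM. High levels were also found in neighbouring loci, from *RPS19* (ATCG00820, 450 ± 27.8 FPKM) down in locus number through *RPL22* (691 ± 30.5), the S3 gene ATCG00800 (945 ± 56.9) and *RPL16* (1169 ± 39.0) to *RPL14* (983 ± 71.6 FPKM). *RPOA*, a polymerase subunit gene, was at 109 ± 4.28 FPKM and *PETD*, of cytochrome b6f, at 5.68 ± 0.593 FPKM (SD, n = 3). *NDHJ* (278 ± 16.2 FPKM), *PSBG* (383 ± 32.3 FPKM) and *NDHC* (280 ± 24.0 FPKM), 3 adjacent loci, likewise stood above the other genes of the NDH complex, of which the highest was *NDHH* at 39.7 ± 2.13 FPKM. *PSBD* (279 ± 7.81 FPKM) and *PSBC* (99.4 ± 4.73 FPKM) were the highest PSII genes. Very short genes differed between libraries. *RPL36*, with a span of 114 bases, was at 1677 FPKM in replicate 3 and at 0 in the others, and *PSAJ*, of 135 bases, was at 208 FPKM in replicate 1 and at 0 in the others. *RPL32* was lowest in replicate 3, where *RPL36* was present, so the SD of the ribosomal share does not show the spread of its members.

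**Figure D3:**
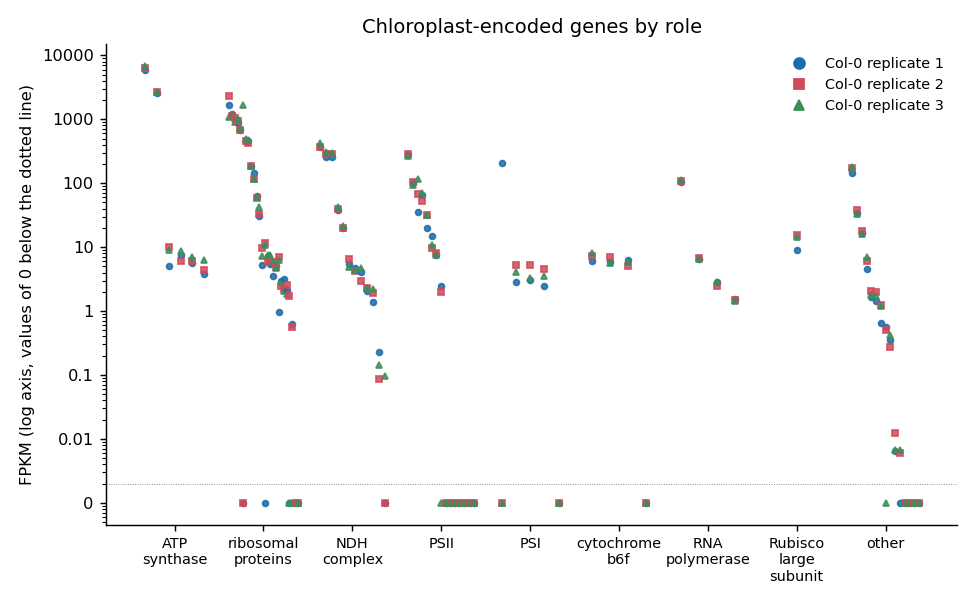
FPKM of the 88 chloroplast-encoded genes in each Col-0 library, grouped by role and ordered by mean within a role (log axis; values of 0 are drawn below the dotted line). *ATPE* and *ATPB* stand highest, ribosomal protein genes span the range from 0 to 2276 FPKM, and *PSAJ* is visible at 208 FPKM in replicate 1 only.

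In the mitochondrial genome, *ORF149* (13.7, 8.22 and 8.63 FPKM) and the cytochrome oxidase gene *COX2* (6.04, 5.49 and 6.55 FPKM) were highest, and 19 genes reached 1 FPKM. Of 86 open reading frames named ORF, 54 were at 0, where 69 of all 122 mitochondria-encoded genes were. Of 23 *NAD*, *COX*, *COB* and *ATP* genes, which encode the respiratory chain and ATP synthase, 10 were at 0 as well.

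A value of 0 was common where a gene has a perfect copy. In RefSeq's annotation, 131 nuclear genes of the file had a coding sequence identical to that of another gene, in 51 groups. Organelle genes did not enter this search, so copies within the organelle genomes are not counted. Of these 131, 115 (87.8%) were at 0 in every library, whereas 4170 of 26563 other genes (15.7%) were. In 43 of 51 groups every member was at 0. The ribosomal S2 genes AT1G58684, AT1G58983 and AT1G59359 were all at 0, and their relative *XW6* (AT1G58380) was at 53.1, 47.9 and 49.9 FPKM. No source used here says how fragments that map to several places were counted, so for genes of this kind a 0 does not show that the gene was silent.

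Markers of leaf, root and vascular cells were present, in keeping with the label of whole seedlings. The mesophyll genes *RBCS1A*, *CA1* and *LHCB2.1* were at 3557 to 15341 FPKM on average. All 12 root markers were detected, among them the Casparian strip gene *CASP1* (55.0, 58.2 and 54.1 FPKM), *SCR* of the endodermis (21.9 ± 0.677 FPKM), the root hair expansin gene *EXP7* (15.0, 17.8 and 17.8 FPKM), the peroxidase 44 gene AT4G26010 (34.7 ± 4.37 FPKM) and the iron transporter gene *IRT1* (107, 94.5 and 79.4 FPKM). Root hair markers summed to 58.1, 71.1 and 66.1 FPKM and all 4 were lowest in replicate 1, as were 34.1% of all genes tested. The phloem gene *SUC2* was at 81.4, 86.7 and 66.8 FPKM, and the guard cell genes *MYB60* (9.27 ± 0.921 FPKM), *FAMA* (8.66 ± 0.908 FPKM) and *KAT1* (6.40 ± 0.127 FPKM) were low but present (SD, n = 3). The trichome regulators *GL2* (3.67, 3.56 and 2.88 FPKM), *GL1* (1.32, 0.952 and 1.23 FPKM) and *GL3* (0.702, 0.720 and 0.669 FPKM) were at low levels.

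Markers of flowers, pollen and seeds and of meristem stem cells were mostly at or near 0. The stem cell genes *WUS* (0 in every library) and *CLV3* (0.126 FPKM on average) are active in a handful of cells, and *STM*, expressed in the whole shoot meristem, was at 1.89, 2.16 and 2.36 FPKM. The most abundant meristem marker was *KNAT1*, at 4.80, 5.38 and 5.90 FPKM. No pollen or seed marker exceeded 0.282 FPKM in any library, and the seed storage genes *CRC*, *SESA1* and *SESA3* were at 0. Of the floral organ genes, *AP1* was at 0 and *AP3* and *AG* were at 0.117 FPKM or less in every library. *PI* (1.44, 1.62 and 1.82 FPKM) and *SEP3* (3.76, 4.14 and 4.33 FPKM) were exceptions.

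Circadian clock genes were measured at a single time, ZT3. The core oscillator pairs morning factors (*CCA1*, *LHY* and the related *RVE* genes) with *PRR* repressors, whose peaks follow one another through the day, and with the evening complex of *ELF3*, *ELF4* and *LUX*. *CCA1* was at 81.5, 78.3 and 72.5 FPKM and *LHY* at 19.1, 19.7 and 21.9 FPKM. *TOC1*, an evening gene, was at 12.8, 13.7 and 12.4 FPKM, and *CCA1* exceeded it 5.97 ± 0.362 times (SD, n = 3). The morning coactivator gene *LNK2* had the highest level of the 26 clock genes (147, 139 and 146 FPKM), and its partner *LNK1* was at 52.4 ± 3.49 FPKM. *RVE4* was at 80.9 ± 4.85 FPKM, *RVE8* at 23.7 ± 0.966 and *RVE6* at 10.2 ± 0.895 FPKM.

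The 4 other *PRR* genes were separate in level. *PRR7* was at 33.9 ± 0.653 FPKM, *PRR9* at 25.2 ± 1.31, *PRR5* at 7.03 ± 0.791 and *PRR3* at 1.64 ± 0.245 FPKM (SD, n = 3), with no overlap between any of these 4. In the evening complex, *ELF4* was at 43.2 ± 2.97 FPKM, *LUX* at 22.6 ± 1.61 and *ELF3* at 9.44 ± 0.677 FPKM, while the *LUX* relative *BOA* was at 1.88 ± 0.214 FPKM. Among the blue light receptors of the clock, *ZTL* (26.8 ± 0.861 FPKM) and *LKP2* (10.5 ± 0.444 FPKM) exceeded *FKF1* (1.59 ± 0.0791 FPKM). *GI*, their afternoon partner, was at 18.0 FPKM on average, and *CHE*, a repressor of *CCA1*, at 26.8, 22.6 and 32.5 FPKM.

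In the flowering pathway below the clock, *CO* was at 0.339, 0.371 and 0.221 FPKM, and its relatives *COL2* (81.0 ± 2.93 FPKM) and *COL1* (55.3 ± 0.640 FPKM) were far higher. The *CO* repressor gene *CDF1* was at 25.2 ± 0.127 FPKM and *FT*, the mobile flowering signal, at 2.46, 3.03 and 2.47 FPKM (SD, n = 3). In the order of the 26 levels, 12 of 25 neighbouring pairs overlapped, such as *COL2*, *RVE4* and *CCA1*.

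Spread between the libraries depended on level. The median CV was 20.7% for genes of 0.5 to 1 FPKM, 8.32% from 1 to 10 FPKM and 5.05% from 10 to 100 FPKM, and it remained near there above (5.30% from 100 to 1000 and 5.28% over 1000 FPKM). Over all 19653 genes tested it was 6.38%, and 71.9% of genes were under 10%. A CV of at least 50% was found in 268 genes, or 1.36%. Among the 10857 genes of at least 10 FPKM it was found in 44, or 0.405%. The median absolute log2 difference between libraries was 0.10 for replicates 1 and 2, 0.11 for 1 and 3, and 0.11 for 2 and 3. A difference of 2-fold or more was seen for 174, 237 and 331 genes in these pairs, the largest number between replicates 2 and 3.

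Genes in common use as qPCR references were steadier than most. Of 20, 14 had a CV below the median of genes within 1.5 times their own level. *UBQ10*, the reference in the paper's qPCR, was at 1078, 1090 and 1062 FPKM with a CV of 1.32%, where the 89 genes of like level had a median of 5.22%. *TUB2* (141, 137 and 139 FPKM, 1.25%), AT2G28390 (16.8, 16.7 and 17.0 FPKM, 0.932%), *GAPC2* (1303 ± 21.1 FPKM, 1.62%) and *AP2M* (48.9 ± 0.814 FPKM, 1.66%) were likewise steady. *CBP20* (1.93%), *EIF4A1* (2.296%), *YLS8* (2.38%), *PP2AA3* (2.75%), *GAPC1* (2.98%), the ubiquitin ligase gene *UPL7* (3.09%) and *EF1A4* (3.69%) followed.

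The actin genes *ACT8* (4.45%), *ACT2* (379, 399 and 418 FPKM, 4.86%) and *ACT7* (249, 224 and 240 FPKM, 5.31%) were close to the middle of genes of their level. *ACT2* was lowest in replicate 1 and *ACT7* in replicate 2. The loci AT4G26410 (5.47%) and AT4G34270 (5.51%) and the ubiquitin-conjugating enzyme gene *UBC21* (46.5, 43.0 and 49.2 FPKM, 6.69%) were above the median of like genes. So were the F-box gene AT5G15710 (10.4%) and the pentatricopeptide repeat gene AT5G55840 (14.8%), both of low level (5.03 and 1.62 FPKM).

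**Figure D4:**
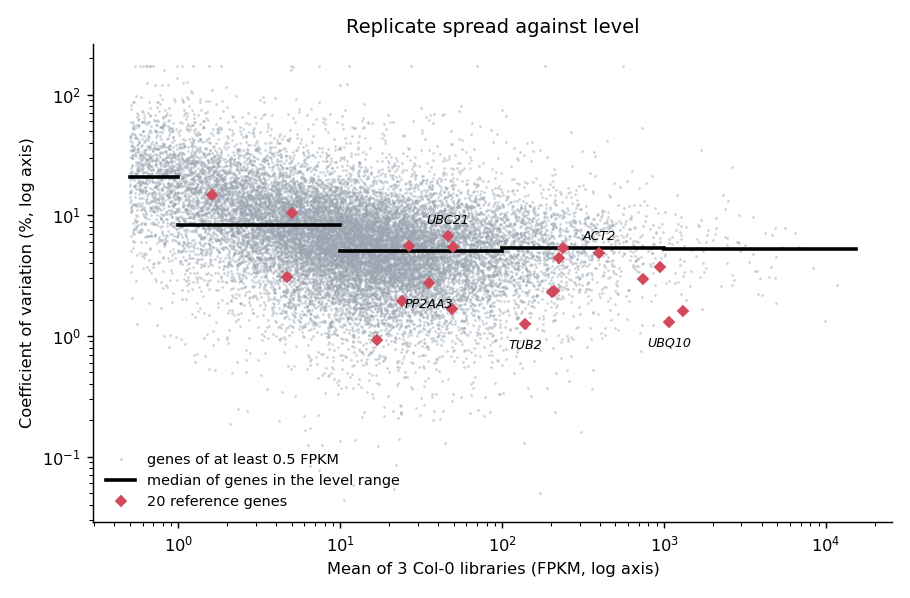
CV over the 3 Col-0 libraries (%, log axis) against mean level (FPKM, log axis) for 19653 genes of at least 0.5 FPKM (grey). Black bars give the median in each level range, from 20.7% down to about 5%, and red diamonds the 20 reference genes, 14 of which lie below the median of genes of like level.

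The 10 genes of at least 10 FPKM with the smallest CV were between 0.0434% and 0.141%. They were AT3G11890 (10.534, 10.527 and 10.526 FPKM), *SUMO2*, encoding a protein modifier (170.1, 170.3 and 170.2 FPKM), the phosphofructokinase gene *PFK5*, AT5G04090, the SPT6-like elongation factor gene *GTB1*, *VIP2*, *scpl10*, AT5G38520, *IQD30* and AT5G62270. Values from 3 libraries that nearly coincide occur among many genes, and none of the 10 kept its place when any one library was left out.

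Among the most variable genes of at least 10 FPKM, some were very short. The 5 genes with the largest CV (AT5G04790, AT5G27889, *PSAJ*, *RPL36* and AT4G37095) were at 0 in 2 of 3 libraries, with spans of 114 to 223 bases. The library with the signal differed, as AT5G27889 was at 81.4 FPKM in replicate 1 only and AT4G37095 at 548 FPKM in replicate 2 only. Of the 17 genes under 300 bases at this level, 7 had a CV of at least 50%, and their median CV was 35.0%, against 5.07% for longer genes. AT5G57080, of 410 bases, was next (25.9, 6.88 and 0 FPKM).

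Of the 44 variable genes, 7 shared their locus with another gene. The median CV of genes of at least 10 FPKM was 4.90% where they shared a locus and 5.11% where they did not. Conserved upstream open reading frames (CPuORFs) are listed as genes of their own, and some changed in the opposite direction to the gene at their locus. *XPL1*, a phosphoethanolamine methyltransferase gene of membrane lipid synthesis, was at 23.5, 6.02 and 0.418 FPKM, and *CPuORF30* at 0.724, 18.4 and 23.04 FPKM. Their sum was 24.2, 24.5 and 23.5 FPKM, with a CV of 2.201%. *ATPAO2*, a polyamine oxidase gene, was at 0.201, 0.0475 and 15.1 FPKM and *CPuORF17* at 23.8, 26.1 and 7.68 FPKM, and their sum had a CV of 7.05%. AT5G09670 (1.54, 15.6 and 14.8 FPKM) and *CPuORF21* (14.0, 0.187 and 0.625 FPKM) had a sum of 15.5, 15.8 and 15.5 FPKM with a CV of 0.927%. In these 3 of 7 loci the sum varied far less than its members. In the other 4 the sum varied as well, with a CV of 66.9% for the locus of *LEA7*, 52.9% for that of *AFP1*, 31.0% for that of AT5G54165 and 22.6% for that of AT1G24600.

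Others were genes of the response to abscisic acid (ABA) and dehydration. ABA is the hormone of water shortage. It inactivates clade A protein phosphatases 2C, which frees SnRK2 kinases to activate ABF transcription factors, and these bind ABA-responsive elements with the core ACGTG. Of the 44 genes of at least 10 FPKM with a CV of at least 50%, 29 were highest in replicate 2 and lowest in replicate 3. A list of 41 ABA and dehydration genes was written after these values had been seen, so its counts describe the pattern and give no independent support for it. Among its 39 members of at least 0.5 FPKM, 34 were highest in replicate 2 and lowest in replicate 3, an order that 18.0% of all genes tested had.

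Late embryogenesis abundant and dehydrin genes, whose products protect dry cells, were among the most divergent. *LEA4-5* (AT5G06760) was at 49.99, 102 and 14.3 FPKM, *LEA7* (AT1G52690) at 77.6, 185 and 52.8 FPKM, and *RAB18* (AT5G66400) at 319, 653 and 358 FPKM. The caleosin gene *RD20* (AT2G33380) was at 108, 169 and 21.8 FPKM. *RAB18* was lowest in replicate 1, and the other 3 genes in replicate 3. *RD29B* (AT5G52300) was at 33.4, 74.5 and 19.0 FPKM, its neighbour *RD29A* (AT5G52310) at 35.7, 60.1 and 11.5 FPKM, and *TSPO*, a membrane protein gene, at 34.4, 54.5 and 6.12 FPKM. Each of these was highest in replicate 2. The cold and drought genes *KIN2* (316, 368 and 119 FPKM) and *COR15A* (71.7, 100.1 and 24.4 FPKM) and the proline synthesis gene *P5CS1* (147, 197 and 83.7 FPKM) had the same order. So did AT3G02480, a gene without description and outside the list, at 743, 1100 and 334 FPKM.

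Several ABA signalling genes had the order of these targets. The clade A phosphatase gene *HAI1* (AT5G59220) was at 36.7, 54.5 and 10.6 FPKM, *ABI1* at 73.7, 86.6 and 40.4, *ABI2* at 13.8, 18.6 and 9.27, and *HAB1* at 53.8, 64.9 and 39.2 FPKM. *NCED3*, the step that limits ABA synthesis under drought, was at 9.56, 16.2 and 5.54 FPKM, and the kinase gene *MAPKKK18* at 4.95, 10.4 and 0.635 FPKM. The transcription factor gene *ABF3* was at 68.7, 74.6 and 45.5 FPKM, whereas *ABF4* (20.1, 21.1 and 17.8 FPKM) varied little. The ABA-degrading enzyme gene *CYP707A3* was nearly even (7.03, 7.81 and 7.31 FPKM), and *ADH1* (37.2, 44.4 and 45.4 FPKM) went another way. Over the 39 genes the level in replicate 2 was 0.979 to 16.4 times that in replicate 3, with a median of 2.93, and 27 genes differed at least 2-fold. The median deviation from a gene's own log2 mean was 0.13 in replicate 1, 0.62 in replicate 2 and -0.77 in replicate 3, while over all genes tested the medians were -0.01 in replicate 1 and 0.01 in replicate 3.

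Promoters of 4 of these genes are printed because they show the ABA-responsive core in strongly differing genes, and a strongly differing gene whose window lacks it. They are the 300 bases before the gene start in RefSeq's TAIR10.1, read along the gene's strand, with ACGTG on either strand (ACGTG or CACGT) in capitals and overlapping matches joined.
RD29B: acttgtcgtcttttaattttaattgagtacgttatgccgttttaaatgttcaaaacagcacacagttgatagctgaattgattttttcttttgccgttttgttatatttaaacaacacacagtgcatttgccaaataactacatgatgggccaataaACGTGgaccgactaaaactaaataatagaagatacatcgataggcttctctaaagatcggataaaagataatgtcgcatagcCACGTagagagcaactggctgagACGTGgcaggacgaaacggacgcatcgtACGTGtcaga
LEA4-5: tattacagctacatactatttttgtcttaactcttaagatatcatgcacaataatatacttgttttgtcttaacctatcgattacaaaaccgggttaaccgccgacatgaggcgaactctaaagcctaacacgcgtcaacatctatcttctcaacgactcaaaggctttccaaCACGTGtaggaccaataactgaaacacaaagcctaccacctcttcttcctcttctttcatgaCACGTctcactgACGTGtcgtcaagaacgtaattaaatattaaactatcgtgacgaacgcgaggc
RD20: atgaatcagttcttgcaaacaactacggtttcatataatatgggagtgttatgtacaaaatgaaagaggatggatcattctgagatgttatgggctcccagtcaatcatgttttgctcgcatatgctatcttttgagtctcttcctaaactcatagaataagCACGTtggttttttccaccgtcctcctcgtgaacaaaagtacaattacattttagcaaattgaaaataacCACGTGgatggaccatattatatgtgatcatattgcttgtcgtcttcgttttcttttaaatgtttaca
HAI1: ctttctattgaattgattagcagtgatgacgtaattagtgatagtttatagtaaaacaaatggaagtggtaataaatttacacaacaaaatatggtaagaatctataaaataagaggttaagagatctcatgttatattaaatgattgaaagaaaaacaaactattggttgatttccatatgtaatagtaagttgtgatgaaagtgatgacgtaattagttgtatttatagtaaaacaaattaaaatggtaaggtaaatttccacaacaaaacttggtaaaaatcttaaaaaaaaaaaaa
The windows are chr5:21236721-21237020 on the plus strand for *RD29B*, and chr5:2090431-2090730, chr2:14146556-14146855 and chr5:23896940-23897239 on the minus strand for the other three in the order printed. They held 4, 3, 2 and 0 matches. Gene starts in the expression file can differ from those of RefSeq. Read along its strand, *HAI1* starts at 23896619 in that file, and the bases between there and the window were not searched.

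The core was present in 29 of 41 promoters of the ABA list (70.7%) and in 6874 of 26694 nuclear promoters of this length (25.8%). At least 2 separate matches were found in 15 of the 41 (36.6%) and in 5.94% of all. Among the 28 variable genes with a RefSeq promoter that were highest in replicate 2 and lowest in replicate 3, 21 had the core. Both sets were picked with these values known, and 13 of the 44 variable genes were in the ABA list. The counts for the list and for the variable genes are therefore not independent. In *HAI1*, *RD29A*, *TSPO* and *NCED3* these letters were not in the window. The 75 photosynthesis genes had the core in 31 promoters (41.3%). A match is a description of the letters and not of a bound site.

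**Figure D5:**
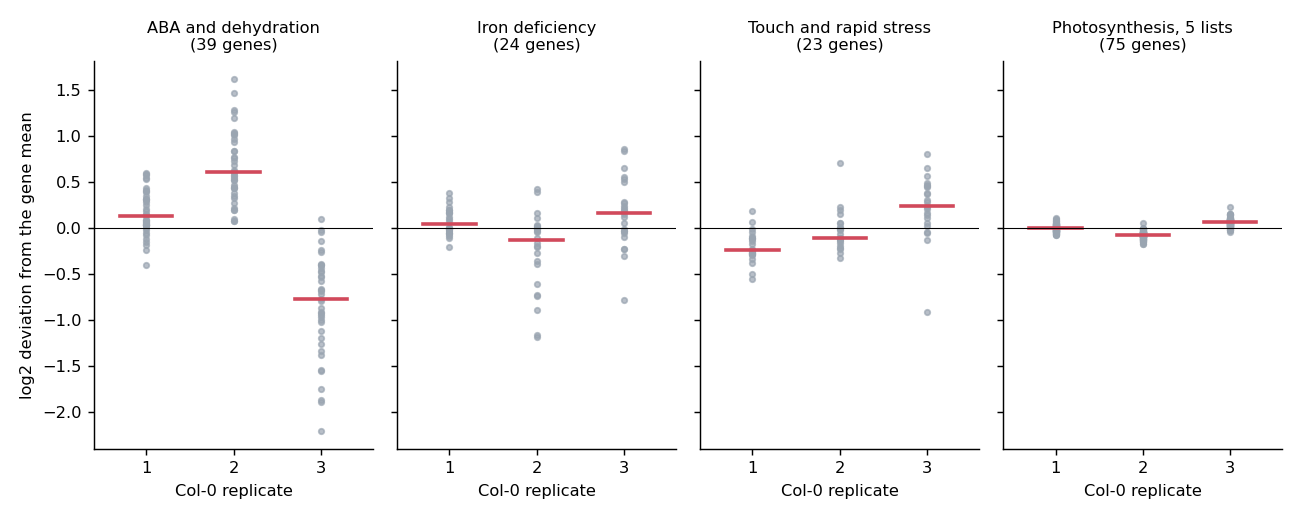
log2 deviation of each gene from its own mean over the 3 Col-0 libraries, from log2(FPKM + 0.1), for genes of at least 0.5 FPKM in 4 groups (grey points, 1 per gene and library; red bars, medians). ABA and dehydration genes have medians of 0.13, 0.62 and -0.77 in replicates 1 to 3, and photosynthesis genes stay within a narrow band with medians of 0.01, -0.07 and 0.06.

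Iron genes also differed between the libraries, in another order. Under iron shortage the bHLH Ib factors, together with FIT, switch on iron uptake in the root, and ferritins store iron in plastids. *BHLH038* was at 21.9, 7.59 and 31.2 FPKM, *BHLH100* at 22.2, 8.07 and 33.2, *BHLH039* at 19.4, 8.88 and 26.004 and *BHLH101* at 10.2, 6.20 and 13.5 FPKM. All 4 were lowest in replicate 2 and highest in replicate 3. The loci AT1G47400 (93.5, 49.0 and 119 FPKM), AT1G47395 (111, 59.5 and 144 FPKM) and AT2G30766 (210, 156 and 243 FPKM), which are part of the list, had the same order. In an iron list of 25 genes that was likewise written after the values had been seen, 13 of 24 members of at least 0.5 FPKM were highest in replicate 3 and lowest in replicate 2, against 20.2% of all genes tested.

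Uptake genes of the root epidermis did not follow. *IRT1* was lowest in replicate 3, as were *FRO2*, the ferric reductase gene (24.6, 23.5 and 17.6 FPKM), and *CYP82C4* (14.0, 14.1 and 6.21 FPKM). *FIT* was even (16.9 ± 1.34 FPKM, SD, n = 3). The ferritin genes *FER1* (404, 301 and 391 FPKM), *FER3* (50.2, 38.9 and 59.0 FPKM) and *FER4* (46.8, 35.7 and 50.4 FPKM) were lowest in replicate 2, as were 34.2% of all genes tested, and the ferritin gene *FER2* (4.14, 4.29 and 4.54 FPKM) was lowest in replicate 1.

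Genes that answer touch and other rapid stimuli were mostly highest in replicate 3. *TCH4*, a wall-loosening xyloglucan endotransglucosylase gene, was at 48.4, 55.6 and 84.7 FPKM, *ERF104* at 33.1, 34.7 and 56.8 FPKM, *ERF105* at 11.6, 15.8 and 26.9 FPKM and *PHI-1* at 9.12, 10.3 and 22.7 FPKM. In this list, again written after the values had been seen, 14 of 23 members were highest in replicate 3 and lowest in replicate 1, against 19.7% of all genes tested. The calmodulin gene *TCH1* (162, 180 and 175 FPKM), *WRKY40* (3.497, 3.33 and 3.96 FPKM) and *JAZ1* (15.8, 14.8 and 14.5 FPKM) varied little, and *CBF3* was lowest in replicate 3 (1.48, 2.16 and 0.636 FPKM).

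The large classes shifted by less but in a uniform way. Of the 75 photosynthesis genes, 52 were highest in replicate 3 and lowest in replicate 2, where the share of all genes tested was 20.2%, and the median deviation was -0.07 in replicate 2 and 0.06 in replicate 3. Of 212 cytosolic ribosomal protein genes of at least 0.5 FPKM, 138 were highest in replicate 1 and lowest in replicate 2, against 14.0% of all genes tested, with a median deviation of 0.07 in replicate 1 and -0.07 in replicate 2. None of these 75 nuclear photosynthesis genes and 212 cytosolic ribosomal genes had a CV of 50% or more. Replicate 3 was the highest library for 15 of 18 PSI genes, 11 of 11 genes of electron carriers and ATP synthase, 5 of 5 Rubisco genes, 14 of 16 Calvin cycle genes and 16 of 25 PSII genes, where 39.9% of all genes tested were highest in that library. Photosynthesis, ABA and iron genes thus differed across the same 3 libraries, and the part of depth, harvest or growth in these differences was not tested.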

How the data were processed

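RNA-seq libraries of 3 Col-0 samples, called biological replicates in the paper, were used. The authors trimmed reads sequenced on MGISEQ-2000 and mapped them to TAIR10, using STAR 2.5 and Cufflinks 2.2.1 according to the submitters' processing notes. The deposited values are FPKM per gene as the authors computed them; the file names no unit, which was taken from the use of Cufflinks and from the range of the values. A second deposited sheet, with the authors' fold changes, p-values and q-values between genotypes, was not used. Read counts, the strand setting and the treatment of multiple mapping are not given in the sources used here, so no counting interval is given.

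Values were used as deposited. CV, shares, ranks and, from log2(FPKM + 0.1), deviations were computed with Python 3.11.15, pandas 2.3.3 and numpy 2.4.6; coding sequences were aligned with Biopython 1.88, and figures drawn with matplotlib 3.10.9. Relative depth was taken as the commonest library-to-library ratio among values below 0.2 FPKM. No test was run, since there is 1 group. Spread and order were computed for genes averaging 0.5 FPKM or more. The calculations of relative depth, CV and deviation were tested on simulated data of known depth, CV and shift, and the others were not. Alternatives were other filters, pseudocounts and scalings, and leaving out each library.

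The members and lists were chosen with earlier results of these data known, and the ABA, iron, ferritin and touch lists after their values had been seen. Named genes were the 30 most abundant, up to 4 of the highest of each class or list, reference, clock and marker genes, the 10 most and 10 least variable of at least 10 FPKM, and the highest and lowest organelle genes; others were chosen after their values were seen. Gene names are those of the file or of RefSeq, in which 26694 of 27372 loci matched. Starts in the file were raised by 1: of 7465 genes with the same end as in RefSeq's TAIR10.1 annotation, 3883 then had the same start.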

Additional observations from a re-analysis of the deposited data

How the results depend on the processing

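No paired analysis was possible because a single group was described and no result comes from a test between groups. Abundance measures were stable. Under restriction to nuclear genes or with medians in place of means, the shares of the 10, 100 and 1000 most abundant genes moved by less than 1 SD. The number of genes holding 50% of the total moved by less than 1.5 times. Rescaling each library to one total cannot change these measures, so it is no check of them. The shares of photosynthesis and of cytosolic ribosomal proteins moved by less than 1 SD with nuclear genes as the denominator and with medians. The chloroplast-encoded share of 1.89% became 1.58% without genes spanning under 300 bases and 0.968% without *ATPE* and *ATPB*, both chosen after seeing the data. The mitochondria-encoded share of 0.00709% became 0.0201% with the AT2G07 loci counted as mitochondrial, although the most abundant of these, such as *CAS1*, are ordinary nuclear genes. Leaving out organelle rRNA and tRNA genes was not run, since the list used here holds only protein-coding genes.

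The median CV of 6.38% was 5.37% with a minimum of 5 FPKM, 5.08% with 50 FPKM and 7.30% with no filter, and 4.79% to 5.71% when a library was left out. The lowest Pearson r of 0.985 became 0.991 with a pseudocount of 1, 0.977 with 0.01 and 0.993 with no filter. The median absolute log2 difference, averaged over pairs, went from 0.11 to 0.0938 with a pseudocount of 1 and 0.0860 with no filter. The median CV of the 20 reference genes (3.04%) was 1.98% to 3.71% when a library was left out. Of the 10 most variable genes, 6 remained with a minimum of 5 FPKM, 5 with 50 FPKM and 4 to 7 when a library was left out. Of the 10 least variable, 6 remained with a minimum of 5 FPKM, 2 with 50 FPKM and 0 after quantile normalization, after median-ratio scaling or when any library was left out; which genes these are is not a stable result. With a library left out, each CV rests on 2 values and cannot be compared directly with a CV of 3 libraries. A lower median CV there does not show a smaller spread. The cause of the other moves was not tested, beyond the change in the genes or libraries included. The median deviations of the ABA and iron lists kept their sign in every library under median-ratio scaling, quantile normalization and pseudocounts of 1 and 0.01. Of 54 other results, in 270 settings, 260 moved by less than 1 SD and 10 by more. These settings include leaving out each library. That cannot move a mean of 3 libraries by 1 SD of the same libraries, so it is no check of these results. The unknown depth limits what a low value means, and under 1 FPKM the spread was as large as many differences between genes.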

Other observations

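The FPKM total was divided among the nuclear chromosomes in nearly the same way in each library, with 28.3% ± 0.0390 on chromosome 1, 15.8% ± 0.130 on chromosome 2, 19.1% ± 0.0317 on chromosome 3, 14.5% ± 0.0456 on chromosome 4 and 20.4% ± 0.108 on chromosome 5 (SD, n = 3). Coding length did not follow level in one direction. In RefSeq's annotation its median was 1320 bases for genes of 1 to 10 FPKM, 1104 bases from 10 to 100 FPKM, 681 bases from 100 to 1000 FPKM and 693 bases above. Over these ranges the median number of exons in the longest transcript fell from 5 to 3. Genes of 0.5 to 1 FPKM had medians of 1155 bases and 3 exons, and genes at 0 in every library 609 bases and 2 exons. The letters TATAAA in the 60 bases before the gene start, read on the gene's strand, were found for 13 of 96 of the 100 most abundant genes that had a promoter (13.5%) and for 12.9% of all nuclear promoters. Genes without a description in the file held 25.02% ± 0.180 of the FPKM total.

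In 8 of the 51 groups of genes with identical coding sequence, no member was at 0. The members of these groups that reached 0.5 FPKM had a median CV of 20.01%, where other genes had 6.36%. Of the elongation factor 1-alpha genes, which are 93.8% to 99.6% identical without being equal, *EF1A4* was at 938 FPKM, AT1G07930 at 250.2, AT1G07920 at 138 and AT1G07940 at 131 FPKM on average, and none was at 0. The lipid-transfer protein genes *LTP3* (376, 483 and 240 FPKM) and *LTP4* (338, 403 and 195 FPKM) had the order of the ABA genes between libraries. *LP1* had this order too but varied little (1725, 1729 and 1678 FPKM, CV of 1.67%). Among the 43 NAC genes of at least 0.5 FPKM, 23 were highest in replicate 2 and lowest in replicate 3, an order that 18.0% of all genes tested had.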
